A study of Mus musculus with 4 samples.

Results

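The regions described here were the peaks lying wholly in coding sequence (coding peaks) in RNA immunoprecipitated with IGF2BP2 from mouse bone-marrow-derived macrophages (BMDMs). A peak was taken when the authors' region annotation gave coding sequence as its only region. This held for 4483 of 15511 peaks in replicate 1 and 5901 of 22570 peaks in replicate 2, or 10384 of 38081 in all. Each library kept its own list. The rule used the position of a peak and no measured strength.

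The study immunoprecipitated IGF2BP2 from BMDMs and set input libraries beside the immunoprecipitates, 4 samples in all. Both libraries used here carry the same label (IGF2BP2 immunoprecipitate, BMDMs), and no treatment, genotype, strain, age or time is given for them in the sources used here. On the antibody the labels conflict, with IGF2BP2 as the target in one field and a monoclonal Flag antibody in the protocol, so the pulled-down protein cannot be given more exactly. Nothing says whether separate cultures or animals gave the replicates, and the tests therefore measure only the differences between these 2 libraries, which may be technical. The input libraries were not analysed here, so a tag count mixes binding with the abundance of the mRNA, and these cannot be told apart.

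IGF2BP2 is a cytoplasmic RNA-binding protein that binds mRNAs through KH and RRM domains and stabilizes many of them. It is described as a reader of N6-methyladenosine (m6A), a methyl mark placed on adenosines in DRACH sequences such as GGAC, mostly in long exons and near stop codons. Coding sequence is cut into exons that splicing joins, so neighbouring stretches of a mature mRNA can lie far apart in the genome. Macrophages are rich in mRNAs of lysosomal enzymes, lipid carriers and surface receptors.

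The sequences at some of the strongest coding peaks are printed below, without a claim that the protein bound them. They are the sense strand within 50 nt of the summit, the position with the most tags, and stop at the border of the exon. Capitals mark GAAG and GAGA, the 4-base words that coding peaks held most in excess of their own coding sequences. Apoe encodes apolipoprotein E, Spp1 osteopontin and Msn moesin, a linker of actin to the membrane. Lgmn encodes the lysosomal protease legumain and Mrc1 the mannose receptor. Emilin2 encodes an extracellular matrix glycoprotein and Itpkb an inositol phosphate kinase. Aplp2 encodes an amyloid precursor-like protein, Myh9 a non-muscle myosin heavy chain and Flna filamin A. The mitochondrially encoded mt-Nd4, a subunit of respiratory complex I, and the spliceosome gene Srrm2 are shown as contrasts, because mt-Nd4 held neither word and the Srrm2 stretch had the lowest purine share of the stretches extracted. Tsc1 is shown because the series title names its protein.
Apoe, chr7:19697479-19697551, minus strand: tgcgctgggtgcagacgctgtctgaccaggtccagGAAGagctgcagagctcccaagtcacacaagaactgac
Spp1, chr5:104436541-104436576, plus strand: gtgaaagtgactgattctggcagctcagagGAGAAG
Msn, chrX:96165925-96165975, plus strand: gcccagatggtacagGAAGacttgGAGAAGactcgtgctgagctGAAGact
Lgmn, chr12:102405796-102405854, minus strand: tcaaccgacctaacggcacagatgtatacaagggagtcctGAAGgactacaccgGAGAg
Mrc1, chr2:14257054-14257117, plus strand: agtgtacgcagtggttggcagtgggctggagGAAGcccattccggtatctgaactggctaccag
Emilin2, chr17:71274173-71274273, minus strand: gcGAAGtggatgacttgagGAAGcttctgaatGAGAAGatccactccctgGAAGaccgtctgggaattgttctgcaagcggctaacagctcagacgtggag
Itpkb, chr1:180333529-180333629, plus strand: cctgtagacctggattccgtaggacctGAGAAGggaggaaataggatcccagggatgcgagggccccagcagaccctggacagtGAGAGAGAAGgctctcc
Aplp2, chr9:31153414-31153464, minus strand: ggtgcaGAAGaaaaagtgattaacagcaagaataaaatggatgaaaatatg
Myh9, chr15:77767451-77767501, minus strand: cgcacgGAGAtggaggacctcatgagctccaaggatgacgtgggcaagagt
Flna, chrX:74241801-74241881, minus strand: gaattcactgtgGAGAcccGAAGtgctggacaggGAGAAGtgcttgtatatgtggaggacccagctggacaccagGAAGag
mt-Nd4, chrM:11093-11193, plus strand: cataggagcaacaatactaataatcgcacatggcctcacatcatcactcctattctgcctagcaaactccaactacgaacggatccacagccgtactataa
Srrm2, chr17:23819946-23820046, plus strand: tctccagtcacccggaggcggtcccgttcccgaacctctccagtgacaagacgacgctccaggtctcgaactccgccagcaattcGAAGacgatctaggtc
Tsc1, chr2:28686910-28687010, plus strand: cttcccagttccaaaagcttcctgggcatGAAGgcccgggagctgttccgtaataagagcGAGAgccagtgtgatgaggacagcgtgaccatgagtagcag

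Coordinates are GRCm38 and the sequences come from GENCODE release 21 transcripts. Over the 20 stretches extracted, purines made up from 45.5% (Srrm2) to 76.5% (Aplp2) of the bases. Apoe and Mrc1 had 56.2%, and among stretches not printed Adgre1 had 45.7%, Lrp1 47.5% and Adam8 48.5%. Single stretches thus varied widely, and those printed were picked from the 20 after their values were seen. The Flna stretch held 3 GGAC words, Itpkb 2, Lgmn, Myh9 and Tsc1 1 each, and the other sequences shown none.

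Coding peaks made up 28.9% of the peaks of replicate 1 (95% exact interval 28.2 to 29.6) and 26.1% of those of replicate 2 (25.6 to 26.7). The share was higher in replicate 1 by a two-sided test (Fisher's exact p = 3.33e-09, with an odds ratio of 1.15), which compares 2 libraries and covers counting error only. Their 44188 and 68622 tags were 23.3% and 21.1% of all tags in peaks, and these sums are not library sizes. A coding peak had a median of 8 tags in replicate 1 (quartiles 5 and 11, highest 225) and 9 in replicate 2 (quartiles 6 and 13, highest 578). Only 42 and 78 coding peaks had 50 tags or more. In 62.8% and 55.5% of all coding peaks the maximum height equalled the tag count, so that every tag of the peak covered 1 shared position.

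Next to the rule lay 183 and 253 peaks whose coding share was at least 0.9 but not complete. Their median was 9 and 10 tags and their median length 178 and 186 nt.

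Coding peaks were short. Their median length was 120 nt in replicate 1 (quartiles 84 and 165) and 123 nt in replicate 2 (87 and 171). Peaks wholly in introns had medians of 238 and 264 nt, and peaks wholly in 3' UTRs 251 and 270 nt. The cDNA products purified for sequencing were 200 to 500 bp long, per the labels, so most coding peaks were shorter than the shortest purified product.

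Most coding peaks had an end on an exon border. In replicate 1, 3951 of 4483 (88.1%, 87.2 to 89.1) had at least 1 end exactly on an annotated splice edge, and in replicate 2, 5271 of 5901 (89.3%). In 2091 (46.6%, 45.2 to 48.1) and 3013 (51.1%, 49.8 to 52.3) the peak was exactly 1 whole exon. Another 1860 (41.5%) and 2258 (38.3%) ended on 1 splice edge, and 532 (11.9%) and 630 (10.7%) touched none. The same measure gave 0.148% and 0.132% of intronic peaks and 1.64% in both libraries of 3' UTR peaks, regions that hold few splice edges. Summits lay on the leftmost base of the peak in 23.0% of coding peaks in each library, against 0.272% and 0.231% of intronic peaks. A deposited coding peak was thus often a stretch that ended where the exon did. The rule bears on this, since a peak that ran past an exon border into an intron was not a coding peak. A coding peak that reached such a border could only end there. In all, 3317 and 5338 peaks held some coding sequence but also another region, and were left out. The splice-edge counts were added once the data had been seen.

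**Figure D1:**
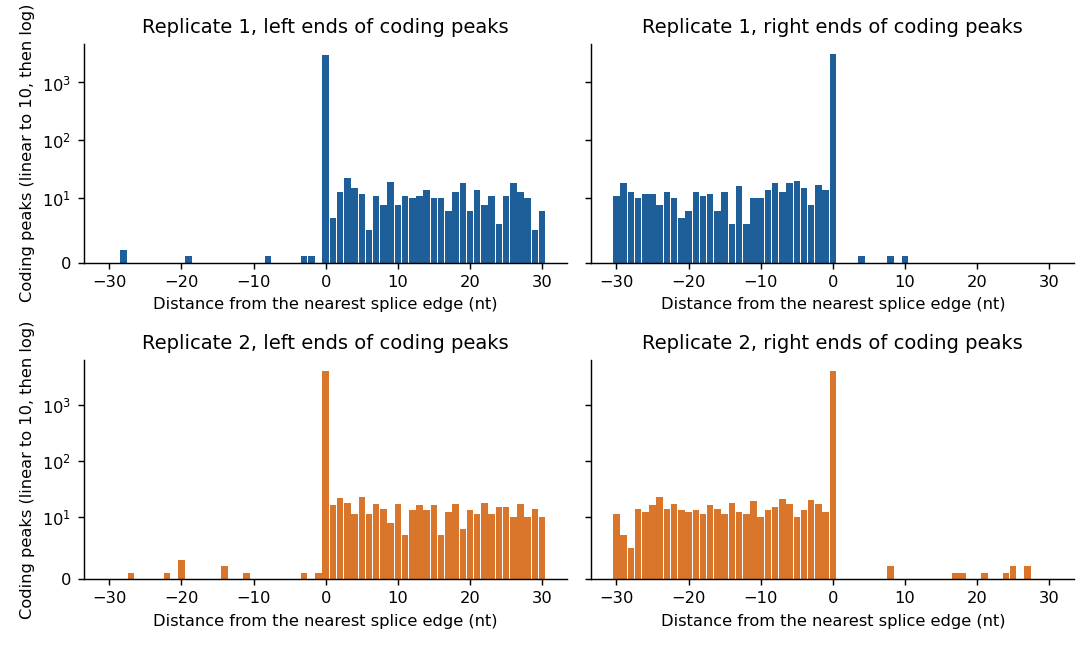
Number of coding peaks by the distance of their left end (left panels) and right end (right panels) in the genome from the nearest splice edge, in nt, for replicate 1 (upper, blue) and replicate 2 (lower, orange), with the count axis linear to 10 and logarithmic above. In all 4 panels the bar at distance 0 stands over 100 times above its neighbours, of which none exceeds 23 peaks. Peaks that ran past an exon border into an intron were left out by the rule.

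Of the coding peaks, 4438 and 5826 lay within 1 exon of the coding sequence of the gene's representative transcript. When the mRNA was read across its splice junctions, many of them touched. In replicate 1, 2152 (48.5%) of these peaks abutted another with no base between them in the spliced mRNA, and in replicate 2, 2890 (49.6%). Joining them left 3258 and 4231 stretches, among them 2286 and 2936 single peaks that abutted no other. Runs of 3 or more peaks numbered 169 and 244. The longest run in replicate 1 was in Washc2, a subunit of the WASH complex that drives endosomal sorting. Its 7 coding peaks covered exons 4 to 10, 621 nt of mRNA, with 7 to 16 tags each. The longest in replicate 2 was in Gas6, a ligand of the TAM receptors by which macrophages clear dying cells. It had 8 peaks over exons 2 to 9, 771 nt, with 10 to 23 tags each. Itgam, the integrin subunit CD11b, had a run of 7 peaks over exons 15 to 21 in replicate 2, with 10 to 23 tags each. Canx, the chaperone calnexin, had 5 over exons 3 to 7 in replicate 2, with 14 to 59 tags. Aldoa, the glycolytic aldolase, had 5 over exons 3 to 7 in replicate 1, with 11 to 23 tags.

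Abutting peaks had like tag counts. The larger count was a median of 1.20 and 1.22 times the smaller, and in 79.2% of links of each library the counts differed by at most 1.5-fold. Over the 1180 and 1595 links, which share a gene and a library, Spearman's rho of the tags was 0.795 and 0.805, as a description. Whether reads that cross a splice junction were counted in both neighbours was not tested. Since 2286 and 2936 coding peaks abutted no other, and the others could be pieces of a longer covered stretch, the number of coding peaks is not given as a number of binding sites.

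Lrp1, an endocytic receptor of macrophages, held the most coding peaks by the lower of its counts in the 2 libraries. It had 24 in replicate 1 and 26 in replicate 2, with 974 and 1259 tags in all, on a coding sequence of 13635 nt in 89 exons. The tags of single Lrp1 peaks ran from 15 to 91 (median 36.5) in replicate 1 and from 18 to 85 (median 46) in replicate 2. Each peak lay on its own exon, and 23 and 24 of them covered that exon whole. Exon 13 had 53 and 81 tags, exon 45 had 27 and 72, exon 51 had 29 and 79, and exon 88 had 38 and 55. Only 9 pairs of coding peaks overlapped, yet 22 of the 24 in replicate 1 were overlapped by a replicate 2 peak of some region. The strongest in replicate 1, exon 70 with 91 tags, had no overlapping peak in replicate 2.

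Macf1, a linker of actin and microtubules, followed with 20 and 27 coding peaks (260 and 439 tags). The ubiquitin ligase gene Herc2 had 14 and 16 (107 and 180 tags), and the scavenger receptor gene Stab1 had 14 in each library (351 and 346 tags). Of the Stab1 peaks, 14 and 12 covered a whole exon, and 11 and 6 were overlapped by a peak of the other library. Dync1h1, the dynein heavy chain, had 12 and 14 (271 and 365 tags). Ubr4 and Birc6, both of the ubiquitin system, had 11 and 15 and 11 and 12. The motor gene Myo5a had 10 and 12 and the cholesterol exporter gene Abca1 11 and 10. Most of these genes have very long coding sequences.

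**Figure D2:**
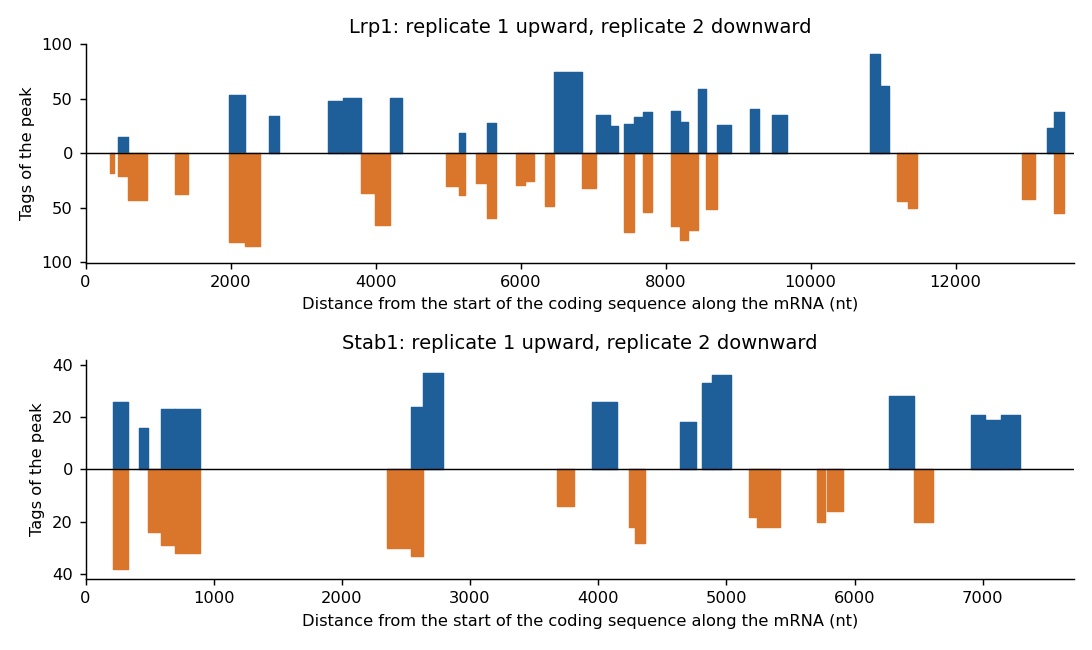
Coding peaks of Lrp1 (upper) and Stab1 (lower), drawn at their distance from the start of the coding sequence along the spliced mRNA in nt, with the height of each block giving its tags, replicate 1 upward in blue and replicate 2 downward in orange. In Lrp1 the blocks run from 15 to 91 tags upward and from 18 to 85 downward, and in Stab1 from 16 to 37 upward and from 14 to 38 downward.

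Most genes had few coding peaks. A single coding peak was the only one of its gene in 50.3% of 2178 genes in replicate 1 and 47.6% of 2663 genes in replicate 2, while 20 and 31 genes had 10 or more. Genes with coding peaks had a median coding sequence of 1983 nt in each library, against 1158 nt over all protein-coding genes. Spearman's rho of coding length and number of coding peaks, across the genes that had any, was 0.267 and 0.313, as a description.

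Coding peaks recurred between the libraries more often than peaks in general. A peak was called recurrent when a peak of the other library shared at least 1 bp with it on its strand. This held for 2010 of the 4483 coding peaks of replicate 1 (44.8%, 43.4 to 46.3), beside 34.8% of all its peaks. It held for 1704 of the 5901 of replicate 2 (28.9%, 27.7 to 30.1), beside 23.6% of all its peaks. Wholly intronic peaks recurred in 707 of 4043 and 667 of 6066, and wholly 3' UTR peaks in 483 of 1283 and 444 of 1651. Because recurrence rose with tags, the classes were compared within 5 bins of tags per library by two-sided Fisher's exact tests, adjusted over the 10 tests of each comparison.

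Against intronic peaks, coding peaks recurred more often in 9 of the 10 bins, and in 7 with bins of the maximum height in place of tags. With 6 to 10 tags the shares in replicate 1 were 44.1% and 13.7% (odds ratio 4.99, exact adjusted p = 1.13e-94). In replicate 2 they were 556 of 2776 and 143 of 2453 peaks (odds ratio 4.05, exact adjusted p = 6.38e-54). The bin not called was that of 50 tags or more in replicate 1, with 34 of 42 coding peaks and 32 of 45 intronic peaks (81.0% and 71.1%, exact adjusted p = 0.324). Coding peaks were the shorter class, and exons offer less room than introns, which these tests do not take into account. The tests against both classes also took each peak as independent. Of the coding peaks placed on a representative transcript, 48.5% and 49.6% abutted another, so the p-values and intervals may be too small.

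Against 3' UTR peaks the difference was smaller. Coding peaks recurred more often in 7 of 10 bins, for example 69.0% against 58.5% with 11 to 20 tags in replicate 1 (odds ratio 1.58, exact adjusted p = 0.00706). In replicate 2 the bins of 3 to 5, 21 to 49 and 50 or more tags were not called, and with 21 to 49 tags the shares were 67.4% and 67.2% (exact adjusted p = 1). With bins of the maximum height in place of tags, only 2 of the 10 comparisons with 3' UTR peaks were called.

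**Figure D3:**
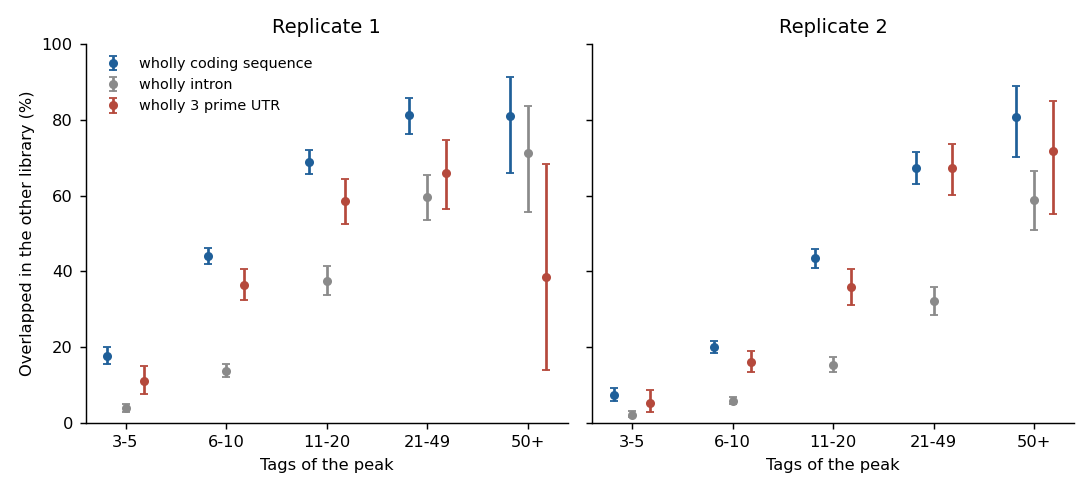
Percent of peaks overlapped by a peak of the other library, by the tags of the peak, in replicate 1 (left) and replicate 2 (right), with 95% exact binomial intervals, for coding peaks (blue), wholly intronic peaks (grey) and wholly 3' UTR peaks (red). Coding peaks rise from 17.6% to 81.0% in replicate 1 and from 7.36% to 80.8% in replicate 2, above intronic peaks in every bin, and their distance from 3' UTR peaks is smaller.

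The partner in the other library was not always a coding peak. Of the 2010 recurrent coding peaks of replicate 1, 1287 (64.0%) met a coding peak, 663 (33.0%) met only a peak that ran from coding sequence into an intron, with or without peaks of other regions, and 60 met other peaks. In replicate 2 the numbers were 1281 (75.2%), 399 (23.4%) and 24. The whole-exon peaks recurred most, in 51.9% and 33.9%. Peaks with 1 splice edge recurred in 38.0% and 23.0%, and peaks with none in 41.2% and 26.0%. Whole-exon peaks also had more tags (median 9 and 10) than those with 1 edge (6 and 7) or none (6 and 8), and the part of tag count in that order was not tested.

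Overlapping coding peaks often had the same borders. Among 1297 overlapping pairs of coding peaks, 530 (40.9%) had identical starts and ends, and 83.7% shared at least 1 end. In 527 pairs both peaks were whole exons, whose borders come from the gene structure. Identical borders thus need not mean more than coverage of the same exon. The tags of the 1240 pairs that overlapped one to one went together across peaks, with Pearson's r of 0.753 on log2 tags and Spearman's rho of 0.686, a description of peaks within 1 pair of libraries. The median ratio of replicate 2 to replicate 1 was 1.33 (log2 0.42, quartiles 0 and 0.83), against 1.44 expected from the tags of all one-to-one pairs.

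Few coding pairs differed between the libraries beyond that ratio. By an exact binomial test of each pair, adjusted by Benjamini-Hochberg over all 4834 one-to-one pairs, 5 coding pairs (0.403%) were called, beside 1.92% of pairs of any region. All 5 were higher in replicate 2, and 63 coding pairs had an unadjusted p under 0.05. The shares of 0.403% and 1.92% were not compared at like tag counts, on which such calls depend. Peaks of any region reached 11155 and 13688 tags, and coding peaks 225 and 578. Scpep1, a serine carboxypeptidase, went from 6 to 33 tags (exact adjusted p = 0.0473). Adam9, a membrane metalloprotease, went from 8 to 42 tags on identical borders (exact adjusted p = 0.0169). Son, a nuclear speckle protein, went from 8 to 43 tags (exact adjusted p = 0.0122), and the coactivator gene Pprc1 from 10 to 48 (exact adjusted p = 0.0120). A Dync1h1 pair went from 14 to 53 tags (exact adjusted p = 0.0376). In all of these but Adam9 the replicate 2 peak was the longer one. With the maximum height in place of tags no pair was called, and with overlap of at least 50% of both peaks 1 was.

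**Figure D4:**
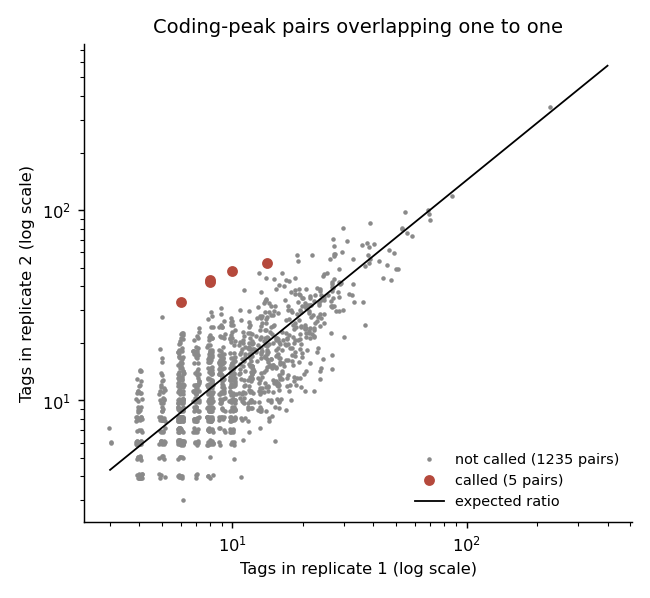
Tags of the 1240 one-to-one overlapping pairs of coding peaks, replicate 1 on the horizontal and replicate 2 on the vertical axis, both logarithmic, with the grey points moved slightly at random for display and a line at the expected ratio of 1.44. The 5 called pairs (red, 6 to 14 tags in replicate 1 and 33 to 53 in replicate 2) lie above the cloud.

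The strongest coding peaks found in both libraries were ordered by the mean rank of the tags of their strongest overlapping pair, which makes their counts a description. Ahnak, a giant scaffold protein, led with 225 and 361 tags at chr19:9010029-9011442 and chr19:9009958-9011332, in an exon that its representative transcript lacks. That transcript is a short form with a coding sequence of only 450 nt, so the exon is not thereby a minor one. The Ahnak peaks were 1414 and 1375 nt long, and neither was a whole exon. The Apoe peak was the whole of exon 3 of 4, 169 nt at chr7:19697479-19697647, with 88 and 121 tags. Spp1 had 70 and 99 tags on the whole of its exon 2 of 6, which is only 36 nt long. Msn had 71 and 90 tags on exon 12 of 13, 225 nt at chrX:96165925-96166149.

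Cd5l, a secreted scavenger protein, had 57 and 71 tags on the whole of exon 5, 321 nt. Mrc1 had 48 and 59 tags on exon 5 of 30, 114 nt, and Adgre1, which encodes F4/80, had 37 and 66 on exon 5 of 22, 120 nt. C1qc, a chain of the complement component C1q, had 50 in each library, within exon 3. The leading pair of Lrp1 was that on exon 13, 223 nt. Adam8, a metalloprotease, had 39 and 59 tags on exon 20 of 24, and Lgmn had 39 and 63 on exon 4 of 14, 82 nt.

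Myh9 had 46 and 51 tags on exon 32 of 41, Flna 35 and 65 on exon 6 of 47, and Dync1h1 50 in each library on exon 33 of 77. Aplp2 had 42 and 53 tags on exon 14 of 17. All of these were whole exons in both libraries.

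A different kind of leading peak lay inside very long exons and touched no splice edge. Ankrd11, a chromatin regulator, had 68 and 93 tags on 1580 and 2159 nt of an exon of 6518 nt. Srrm2, a spliceosome protein, had 35 and 87 tags inside an exon of 6569 nt. Itpkb had 52 and 82 tags in an exon of 2119 nt and Emilin2 39 and 84 in one of 1914 nt. In the single exon of mt-Nd4 the peak had 54 and 76 tags on 615 and 630 nt. Of all coding peaks with no splice edge, 84.7% and 88.2% lay in exons of 400 nt or more.

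Among the genes of the series title, Tsc1, whose product hamartin restrains mTORC1, had 1 coding peak in replicate 1 and 2 in replicate 2. The pair found in both lay in the last exon, exon 23 of 23. It ran over chr2:28686825-28687023 with 6 tags in replicate 1 and chr2:28686754-28687055 with 13 tags in replicate 2, ending 150 and 118 nt before the end of the coding sequence. Of the coding peaks of the same library, 25.2% and 72.7% had fewer tags. The other was in exon 22 at chr2:28685985-28686146, with 10 tags in replicate 2 and no overlapping peak in replicate 1. Pparg, the lipid-sensing nuclear receptor, and Igf2bp2 itself had no coding peak in either library.

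At the level of genes, 1346 had a coding peak in both libraries, 61.8% of those in replicate 1 and 50.5% of those in replicate 2. Among protein-coding genes of the annotation the share was 6.12%. In 801 of the 1346 (59.5%) coding peaks of the 2 libraries overlapped each other. The remaining genes had no overlapping pair of coding peaks. Their coding peaks could still meet a peak that ran into an intron, so different exons are not implied. The share of protein-coding genes with coding peaks in both libraries went with coding length, from 1.63% of those under 1000 nt to 5.56% from 1000 nt, 12.4% from 2000 nt and 24.6% from 4000 nt upward. The counts of gene lists that follow stand beside 6.12% for all protein-coding genes and beside the median coding length of each list. That 6.12% is over all annotated genes, whether or not macrophages express them. Expression was not measured here, so a share above 6.12% does not by itself show preferred binding.

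Of 28 lysosomal genes, 16 had a coding peak in both libraries (57.1%, median coding sequence 1455 nt). Lgmn had 5 and 4 coding peaks with 174 and 166 tags in all. The cholesterol transporter gene Npc1 had 5 and 9 (81 and 176 tags) and the membrane protein gene Lamp1 3 and 1 (145 and 103 tags). Grn, which encodes progranulin, had 2 in each (108 and 148 tags), none of them overlapping. Coat and sorting genes of endosomes had 15 of 26 (2764.5 nt), led by the clathrin heavy chain gene Cltc with 7 and 5 (177 and 135 tags). Chaperones of the endoplasmic reticulum and cytosol had 16 of 25 (1668 nt), among them Canx with 5 and 7 (118 and 237 tags) and the disulfide isomerase gene Pdia3 with 8 and 5 (117 and 166 tags). The V-ATPase, which acidifies lysosomes, had 4 of 16 (1051.5 nt), led by Atp6v1a with 6 and 4 (89 and 86 tags).

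Cytoskeletal scaffold genes had 17 of 26 (65.4%, median coding sequence 2967 nt), led by Plec, the linker plectin, with 9 and 5 (409 and 711 tags). A single replicate 2 peak of Plec held 578 of those tags. Motor genes had 11 of 16 (4357.5 nt), such as Dync1h1 and Myo5a. Chromatin enzymes had the largest share of the 19 lists, 22 of 30 (73.3%), and also long coding sequences (5740.5 nt). The methyltransferase gene Kmt2d had 6 and 7 (110 and 173 tags) and the maintenance methyltransferase gene Dnmt1 9 and 10 (84 and 110 tags).

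Aminoacyl-tRNA synthetases, which load amino acids onto tRNAs, had 13 of 20 (65.0%, 2073 nt), for example Nars with 4 and 5 (88 and 85 tags). Translation factors had 9 of 23 (1311 nt), led by the scaffold factor gene Eif4g1 with 10 and 5 (214 and 123 tags). Ribosomal protein genes had 2 of 30 (6.67%, 649.5 nt), namely Rpl4 with 1 in each (9 and 14 tags) and Rpl13a with 1 in each (10 and 11 tags). Splicing factors and hnRNPs had 16 of 32 (1801.5 nt), led by Srrm2 with 5 and 4 (138 and 203 tags). Glycolytic enzymes had 8 of 19 (1476 nt), led by Aldoa with 5 and 4 (93 and 82 tags) and the lactate dehydrogenase gene Ldha with 3 and 2 (59 and 63 tags).

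Among macrophage states, genes of alternative activation had 12 of 22 in both libraries (54.5%, 1272 nt). Mrc1 had 6 coding peaks in each (283 and 315 tags), the transferrin receptor gene Tfrc 4 and 3 (138 and 76 tags) and Arg1, the arginase gene, 3 in each (74 and 65 tags). Genes of classical activation had 3 of 33 (9.09%, 987 nt), namely the NF-kB subunit gene Nfkb1 with 3 in each (36 and 47 tags) and the chemokine genes Ccl2 (9 and 14 tags) and Ccl4 (11 and 8 tags). These lists were not tested against each other. The macrophage identity list had 9 of 30 (1137 nt), led by Lrp1, Adgre1 and Itgam. Genes of PPARG signalling and lipid handling had 12 of 30 (1497 nt), among them Abca1 (128 and 165 tags), Apoe and the scavenger receptor gene Cd36 with 5 and 6 (81 and 123 tags).

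The TSC and mTORC1 list had 8 of 34 (23.5%, 1576.5 nt). Rptor, which encodes raptor, had 4 and 3 coding peaks (38 and 52 tags), and the small GTPase gene Rheb 2 and 3 (20 and 31 tags). Akt1 had 2 in each (27 and 29 tags). The m6A machinery had 5 of 25 (1740 nt), led by Prrc2a with 7 and 6 (179 and 222 tags). Of 22 mRNAs described as IGF2BP targets elsewhere, 7 had a coding peak in both (31.8%, 1138.5 nt), including Ldha and the adhesion receptor gene Cd44 with 1 in each (20 and 25 tags).

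The labelled cell type was checked against markers. Of 10 macrophage markers, 3 had coding peaks in both libraries (Mrc1, Adgre1 and Itgam), and 4 more in 1 library. Of the 5 T cell, 6 neutrophil, 5 dendritic cell and 4 erythroid markers matched, 0 had a coding peak in either library. Of the 5 B cell and 5 fibroblast markers, 1 each had one in a single library. The macrophage markers had a median coding sequence of 2002.5 nt, against 741 nt for T cell, 459 nt for neutrophil, 1134 nt for dendritic cell and 784.5 nt for erythroid markers, and short genes rarely had coding peaks, so the zeros say little about those cells.

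Along the coding sequence, the parts nearest its end held fewer coding peaks than an even spread. The coding sequence was cut into 10 equal parts, and the share of midpoints in each was set against that over all positions of the same length in the same coding sequence. The last part held 5.50% of coding peaks in replicate 1 against 7.19% of positions, a ratio of 0.765, and the ratio in replicate 2 was 0.687. The ninth part had 0.827 and 0.853 and the eighth 0.906 and 0.912. The rule left out peaks that ran past the stop codon, which lowers the last part, so no direction is given for the last part. How far this reaches into earlier parts was not tested. The highest ratio in replicate 1 was in the sixth part, 1.14, where replicate 2 had 1.12. The first part was near an even spread (0.988 and 1.04), but at 0.817 and 0.847 when only positions that fit within 1 exon were counted, so no direction is given for it.

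The exon under a coding peak had a median length of 148 and 147 nt. Internal coding exons held 90.9% and 91.3% of coding peaks but 82.2% and 82.3% of the coding bases of the same mRNAs. The first coding exon held 4.10% and 3.91% (7.96% and 7.84% of bases) and the last 4.35% and 3.93% (9.23% and 9.07% of bases). Exons of 400 nt or more held 14.6% and 14.8% of coding peaks and 19.8% and 20.9% of bases. A share of peaks and a share of bases are unlike measures. Whole-exon peaks had median lengths of 118 and 119 nt, and peaks with no splice edge 231 and 248 nt. Like coverage would thus give fewer peaks per base in long exons, so no direction is given for exon length or exon position. A peak at the start or stop codon that ran into a UTR was not a coding peak by the rule, which lowers the counts of the first and last exons and parts.

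The GC content of coding peaks was close to that of the coding sequences they came from, with a mean difference of -0.194 and -0.305 percentage points, and 49.7% and 49.5% of coding peaks lay above their own coding sequence. Purines made up 55.7% and 55.3% of the bases against 53.4% and 53.2%. Each of the 256 words of 4 bases was counted on the sense strand only, overlapping copies included, and set against the number expected from its frequency in the same coding sequence. This measure was chosen after seeing the data.

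Words of purines stood at the top. GAAG led in both libraries, with 8374 copies in replicate 1 against 6449.5 expected, a ratio of 1.30, and a ratio of 1.28 in replicate 2. GAGA followed with 1.27 and 1.24, and GGAA had 1.26 and 1.23. All 14 words made of A and G, with both present, were above 1 in both libraries, with medians of 1.22 and 1.18. All 47 words holding CA were below 1 in both, with medians of 0.877 in each library. The lowest were TCAT in replicate 1 (0.723) and CATA in replicate 2 (0.731). The ratios of the 256 words went together between the libraries (Pearson's r 0.973), which share genes and exons, so this is a description.

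In coding peaks with no splice edge, whose borders do not follow exons, the medians were 1.25 and 1.21 for purine words and 0.850 and 0.886 for words holding CA. There all 14 purine words were again above 1, but 5 of the 47 words holding CA were above 1 in each library, and GAAG, at 1.23 and 1.19, ranked 15 and 14 of 256. The medians also lay on the same sides of 1 in wholly 3' UTR peaks set against their own 3' UTRs, with 1.19 and 1.17 for purine words and 0.910 and 0.921 for words holding CA. Per the labels, reverse transcription used random hexamer primers. With no input value used here, the sequence choice of the protein and that of the library preparation cannot be told apart. Whole-exon peaks made up 46.6% and 51.1% of coding peaks. The medians above were not set against the same exon, so the part of exon composition in them was not tested.

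**Figure D5:**
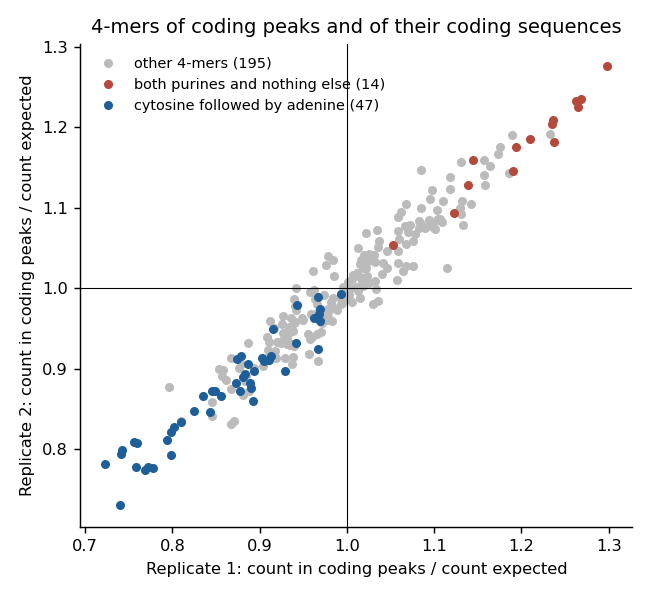
Count of each of the 256 words of 4 bases in coding peaks divided by the count expected from the same coding sequences, replicate 1 on the horizontal and replicate 2 on the vertical axis, with lines at 1. The 14 purine words (red) lie above 1 on both axes, up to 1.30 and 1.28, and the 47 words with cytosine followed by adenine (blue) lie below 1 on both.

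The m6A and IGF2BP motifs were counted in the same way, on the sense strand, as the share of peaks holding at least 1 copy beside the mean share over all windows of the same length in the same coding sequence. GGAC was in 46.8% of coding peaks of replicate 1 and 44.5% of windows, and in 46.4% and 45.7% in replicate 2. Per kb of peak it occurred 5.29 and 5.20 times, against 4.93 and 4.92 times. With windows of the same exon the difference was 0.736 percentage points in replicate 1 and -0.506 in replicate 2. No direction is therefore given for GGAC over all coding peaks. Of the 510 and 609 located coding peaks with no splice edge, 70.8% and 71.4% held GGAC. Windows of their whole coding sequences gave 65.7% and 68.9%. Per kb the word then occurred 5.70 and 5.39 times, against 4.88 and 4.84 in windows. DRACH was in 88.9% against 87.6% and in 88.7% against 88.6%, near the ceiling of this measure. Its density, which has no such ceiling, was nearly the same in peaks and windows, 20.62 against 20.66 and 20.79 against 20.73 per kb. The word CAT followed by A, C or T, the DNA form of a motif described for IGF2BP proteins by crosslinking, was in fewer coding peaks than windows, 57.8% against 66.6% and 60.3% against 67.9%. Its density was 7.69 and 7.86 per kb against 9.97 and 10.0. With windows of the same exon, which whole-exon peaks equal by construction, the differences shrank to -2.63 and -2.47 percentage points (60.4% and 62.8% of windows), and the densities in windows were 8.31 and 8.60 per kb. These are descriptions of letters in peaks and not of bound sites.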

How the data were processed

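Both deposited lists give 1 line per peak of 1 immunoprecipitation library. Per the file headers, the authors deposited a whole tag count (lowest value 3), a maximum height, which is a coverage signal never above the tag count, a length, a summit and how much of the peak each kind of region covers. The submitters' processing notes name GRCm38, TopHat2 and bcl2fastq. How peaks were called, at which threshold and whether with the input, is not given in the sources used here. The deposited starts and summits count from 0: start plus 1 fell on an exon's left edge in 2988 and 4124 coding peaks, the start as deposited in 7 and 16. Positions are given from 1, and lengths are 1 nt shorter than deposited.

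Genes were matched by identifier to GENCODE release 21 (same build). The representative transcript was the APPRIS principal one, then that with the longest coding sequence. Expected places, motifs and 4-base words came from enumeration of the same coding sequence, not from random draws. Fisher's exact and exact binomial tests with Benjamini-Hochberg adjustment (threshold 0.05) and exact 95% intervals were run in Python 3.11.15 with scipy 1.17.1 and statsmodels 0.14.6, and overlap and pair tests were tested on simulated data. Tests and intervals cover counting error only, without molecular identifiers, and library depth is unknown. Fisher's tests and the intervals of shares took each peak as independent.

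The coding peaks, the 19 gene lists, the 7 marker lists and the rule for named genes were chosen with earlier results of these data known. The rule took the 20 genes leading by mean tag rank of their strongest overlapping pair, the 10 with most coding peaks, the genes of the title with Igf2bp2, up to 4 genes per list by summed tags and up to 5 called pairs per direction. The longest runs and the 4-base words were named after their values were seen. A gene that the rule named is not reported here.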

Additional observations from a re-analysis of the deposited data

How the results depend on the processing

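No paired analysis was possible because the input libraries that share the replicate numbers were not analysed here, and the immunoprecipitates form 1 group. Values are means of both libraries unless they are counts. With peaks counted as coding when coding sequence covered over 50% of them, the share was 39.1% in place of 27.5%. Recurrence was 36.9%, 25.2% when the partner had to be a coding peak and 57.7% for coding peaks of 10 or more tags. With maximum height, 7 bins were called against intronic peaks in place of 9, and 2 against 3' UTR peaks in place of 7. Coding pairs called were then 0 in place of 5, and the median strength was 7.5 in place of 8.5 tags. With overlap of at least 50% of both peaks 1 coding pair was called. With 10 or more tags, 531 genes were shared in place of 1346, the median exon was 154.5 nt in place of 147.5 and the median length 142 nt in place of 121.5. The first of the 10 parts of the coding sequence then had a ratio of 0.970 in place of 1.02. Counting only positions that fit in 1 exon, it had 0.832 and the last part 0.602 in place of 0.726. The GGAC difference was 1.52 percentage points, and 0.115 with windows of the same exon, where whole-exon peaks equal their window (0.736 in replicate 1 and -0.506 in replicate 2). The median ratio of purine words was 1.20, and 1.17 in whole-exon peaks. For words holding CA it was 0.877, and 0.890 with 10 or more tags, 0.868 with no splice edge and 0.867 in whole-exon peaks. The share with a splice edge was 88.7%, 89.5% with 10 or more tags and 89.0% within 2 nt. The alternatives for splice edges and 4-base words were added after seeing the data. Leaving out either replicate moved no value of the coding share, recurrence, splice edges, tags or length by over 1.5 times. The causes of these shifts were not tested. Low tag counts, a median of 8 and 9 per coding peak, limit the pair test.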
